A study of Mus musculus with 8 samples.

Results

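The promoters of long intergenic noncoding RNA (lincRNA) genes that lie away from protein-coding genes were examined in mouse embryonic fibroblasts (MEFs) on day 5 of reprogramming. A promoter was taken as the 2 kb on either side of the annotated start of a gene of type lincRNA in GENCODE release M21 for build mm10. Only genes with no protein-coding start within 5 kb were kept. Of 5854 lincRNA genes, 5184 met this rule, out of 55413 annotated gene promoters in all. The rule used the annotation alone and no measured value. Of the 5184 genes, 264 had a body that overlapped a protein-coding gene, and 548 lay on chromosome Y. No promoter there held a summit of any list (0 of 548, which allows a share of up to 0.547% if all could be measured). Repetitive and poorly mapped reads had been removed by the authors, and whether these promoters could be measured was not tested. All shares of the 5184 include them.

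CUT&Tag, in which an antibody tethers a transposase to its target so that the surrounding DNA is tagged, was carried out for 4 targets in 2 arms, with 1 library for each of the 8 groups. Both arms received Oct4 in retroviral vectors, on MEFs of either sex from embryos that carry the OG2 reporter, in which GFP reports Oct4. One arm also received wild-type Nanog (NanogWT, Nanog+Oct4 in the labels). The other received NanogBiD, a fusion in which the BRG1-interacting part of SS18 is joined to the N-terminus of NANOG. The labels call that arm NanogN70+Oct4, and its identity with NanogBiD comes from the text of the study. The targets were the FLAG tag on the introduced NANOG, BRG1, H3K27ac and H3K4me1. Replicates had been merged by the authors before peaks were called, so no difference between the arms could be set against the spread between cultures, and no test between arms was made. Intervals given here are 95% intervals that cover counting error only, and neighbouring promoters are not independent.

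LincRNA genes are transcribed by RNA polymerase II from promoters of their own, and many of their transcripts are scarce and restricted to few cell types. BRG1 (SMARCA4) is the ATPase of the BAF complex, which slides and evicts nucleosomes, and SS18 is a subunit of that complex. NANOG and OCT4 are transcription factors of the pluripotency network. H3K27ac marks active promoters and enhancers, and H3K4me1 marks enhancers and the flanks of promoters, whether active or poised.

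Each list gives, for every called peak, a score of significance from the peak caller and a summit, the base with the most overlapping tags, whose tag number is called the height here. Summits were counted in 8 lists of 30859 to 74782 peaks. The lowest score was 50 in every list and the lowest heights were 6 to 8 tags, so a promoter without a summit is one without a called peak centre and may still hold signal. Heights were not scaled to depth, and the depth of each library is unknown. In bulk libraries, more cells bound at a promoter and more tags per bound cell cannot be told apart. The start sites of fibroblast marker genes held an H3K27ac summit at 8 of 10 genes in both arms, among them Col1a1, Col1a2, Col3a1, Fn1 and Vim. Of 8 pluripotency markers none held one in NanogWT and 1, Tdgf1, held one in NanogBiD. Blood, endothelial, epithelial and neural markers went from 0 of 3, 0 of 3, 0 of 4 and 1 of 3 genes in NanogWT to 1 (Ptprc), 2 (Kdr and Cdh5), 1 (Krt8) and 2 (Sox1 and Tubb3) in NanogBiD. Marker promoters of other cell types thus held more H3K27ac summits in NanogBiD, by few genes. Over all annotated promoters the share with an H3K27ac summit was 27.4% in NanogWT and 29.3% in NanogBiD. The lincRNA promoters described next likewise held more FLAG, BRG1 and H3K27ac summits there, and the part of other cell types in those results was not tested.

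The sequences under the strongest one-sided summits give a first view of these promoters. Each is the 101 bases centred on a FLAG summit, from the mm10 genome (RefSeq GRCm38.p6), plus strand. Capitals mark matches on either strand to 5 motifs, namely AP-1 (TGACTCA), the OCT octamer (ATGCAAAT), TEAD (GGAATG), RUNX (TGTGGTT) and SOX, for which the searched forms were ACAATAG as well as the form ACAATGG, together with the form ACAAAAG and lastly the form ACAAAGG. The first 6 are NanogBiD summits from the 97 promoters that held FLAG and BRG1 in NanogBiD and neither in NanogWT. They are the 6 highest-ranked by whichever of the FLAG and BRG1 scores was the lower.
A330102I10Rik, chr13:29015587-29015687: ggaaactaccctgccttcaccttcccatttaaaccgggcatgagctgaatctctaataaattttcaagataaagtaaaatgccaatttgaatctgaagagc
Gm29561, chr3:104662135-104662235: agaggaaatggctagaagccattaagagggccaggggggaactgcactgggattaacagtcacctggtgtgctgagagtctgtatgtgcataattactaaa
Gm29502, chr13:100846450-100846550: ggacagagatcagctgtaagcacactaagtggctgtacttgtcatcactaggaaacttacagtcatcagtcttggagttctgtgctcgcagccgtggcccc
Gm12498, chr3:108026438-108026538: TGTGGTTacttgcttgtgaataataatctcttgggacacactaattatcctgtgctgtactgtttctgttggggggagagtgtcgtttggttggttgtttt
Gm33979, chr10:70740263-70740363: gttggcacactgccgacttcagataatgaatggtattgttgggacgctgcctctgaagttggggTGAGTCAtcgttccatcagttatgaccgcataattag
Gm47839, chr10:124845264-124845364: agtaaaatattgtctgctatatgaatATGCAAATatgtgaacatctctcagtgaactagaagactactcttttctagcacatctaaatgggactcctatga

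The reverse class is shown by Gm31333, which held FLAG and BRG1 in NanogWT and neither in NanogBiD, at its NanogWT summit. Platr11 and Lncenc1, transcripts named for their expression in embryonic stem cells, are shown at their NanogBiD summits.
Gm31333, chr12:29137262-29137362: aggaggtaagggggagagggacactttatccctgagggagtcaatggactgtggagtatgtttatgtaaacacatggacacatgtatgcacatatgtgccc
Platr11, chr9:118406293-118406393: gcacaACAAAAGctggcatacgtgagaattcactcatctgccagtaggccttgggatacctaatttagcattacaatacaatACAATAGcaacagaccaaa
Lncenc1, chr13:97435487-97435587: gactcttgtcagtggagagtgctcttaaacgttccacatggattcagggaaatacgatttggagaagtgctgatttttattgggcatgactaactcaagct

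Among the 6 promoters of the first set, Gm33979 held an AP-1 match, Gm47839 an octamer and Gm12498 a RUNX match, and the other 3 held none of these letters within 50 bp of the summit. A CpG-rich promoter that was occupied in both arms is given for contrast. It is the RefSeq promoter of 1700096K18Rik (250 bases before to 50 after the start, plus strand), and capitals mark its 33 CG dinucleotides.
1700096K18Rik, chr5:25529768-25530067: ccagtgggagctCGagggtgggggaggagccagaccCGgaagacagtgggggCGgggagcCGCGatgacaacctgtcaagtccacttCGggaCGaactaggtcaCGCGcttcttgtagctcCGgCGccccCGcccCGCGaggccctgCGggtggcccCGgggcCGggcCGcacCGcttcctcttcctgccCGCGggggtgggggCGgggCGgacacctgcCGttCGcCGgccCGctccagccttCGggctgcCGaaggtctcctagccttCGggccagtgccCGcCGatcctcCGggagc

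Few lincRNA promoters were occupied. Of the 5184, 3679 (71.0%) held no summit in any of the 8 lists, 1505 held at least 1 and 238 held a summit in all 8. FLAG-tagged NANOG was found at 743 promoters in NanogWT (14.3%, Wilson interval 13.4 to 15.3%) and at 905 in NanogBiD (17.5%, 16.5 to 18.5%). BRG1 was found at 445 promoters (8.58%, 7.85 to 9.38%) and 715 promoters (13.8%, 12.9 to 14.8%) respectively. H3K27ac covered 531 (10.2%) and 706 (13.6%), and H3K4me1 covered 1013 (19.5%) and 903 (17.4%). H3K4me1 was therefore the most common of the 4 targets in NanogWT, and in NanogBiD FLAG and H3K4me1 differed by 2 promoters. All these shares lay far below those of the 21938 protein-coding promoters, where FLAG was at 48.9% and 49.8% and BRG1 at 48.8% and 49.3%. The 670 lincRNA promoters left out for having a protein-coding start within 5 kb resembled the latter, with FLAG at 49.1% and 49.6% and BRG1 at 48.4% in both arms.

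**Figure D1:**
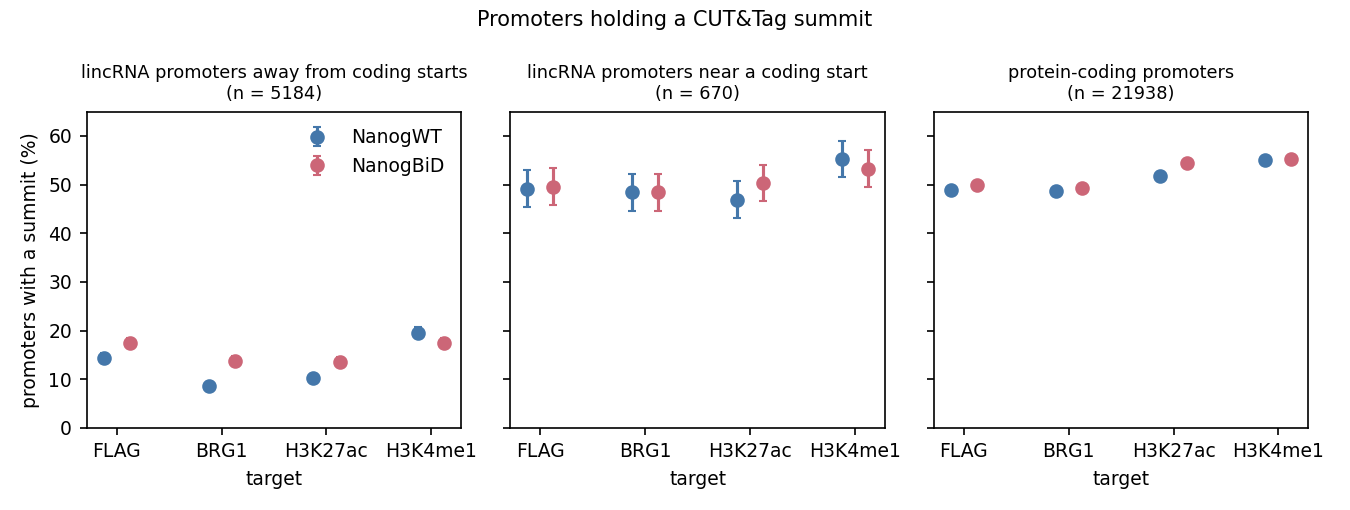
Share of promoters with a summit (y axis, %) for each target (x axis) in NanogWT and NanogBiD, for 3 sets of promoters; points are shares of 1 merged library and bars are Wilson 95% intervals for counting error. At lincRNA promoters away from coding starts every share is between 8.58% and 19.5%, and BRG1 goes from 8.58% to 13.8%.

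The question put to these promoters was whether the fusion that carries a BAF-binding domain altered where NANOG, BRG1 and the 2 marks were found. The number of promoters with a BRG1 summit was 1.61 times as high in NanogBiD as in NanogWT (445 and 715, interval 1.43 to 1.81). The ratio was 1.22 (1.10 to 1.34) for FLAG and 1.33 (1.19 to 1.49) for H3K27ac, and 0.891 (0.814 to 0.976) for H3K4me1. At protein-coding promoters the FLAG, BRG1 and H3K27ac ratios were 1.02, 1.01 and 1.05, and H3K4me1 was held by 12082 promoters in NanogWT and 12105 in NanogBiD. Over all annotated promoters the BRG1 ratio was 1.08, the FLAG ratio 1.06 and the H3K27ac ratio 1.07. The lists themselves differ in size, and the ratio of whole lists was 1.74 (BRG1), 1.27 (FLAG), 1.20 (H3K27ac) and 0.791 (H3K4me1). The BRG1, FLAG and H3K27ac ratios at lincRNA promoters were thus above those of all promoters, and the whole-list ratio of each of these 3 targets lay within the lincRNA interval. The BRG1 ratio was 1.61 (250 and 402 promoters) with a score of at least 100 and 1.68 (179 and 300) with summits of at least 15 tags. When each list was limited to its 20000 best-scoring peaks, lincRNA promoters gave ratios of 0.89 (BRG1, 0.756 to 1.05), 1.01 (H3K4me1), 1.03 (FLAG) and 1.10 (H3K27ac), so the BRG1 excess was not seen at equal list size.

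Promoters were then classed by the arm or arms that held a summit. BRG1 was present in both arms at 376 promoters, in NanogBiD alone at 339 and in NanogWT alone at 69. The 339 are 6.54% of the lincRNA promoters, beside 4.33% of all annotated promoters, and the 69 are 1.33%, beside 2.31%. FLAG was present in both arms at 622 promoters, in NanogBiD alone at 283 (5.46%, beside 4.5% of all promoters) and in NanogWT alone at 121 (2.33%, beside 2.92%). H3K27ac was in NanogBiD alone at 251 promoters (4.84%, beside 3.32%) and in NanogWT alone at 76 (1.47%, beside 1.41%). H3K4me1 ran the other way, with 202 promoters in NanogBiD alone (3.9%, beside 3.95%) and 312 in NanogWT alone (6.02%, beside 4.93%). Of the promoters with BRG1 in 1 arm only, 83.1% (exact interval 79.1 to 86.6%) were in NanogBiD. This share was 65.2% (63.6 to 66.7%) over all annotated promoters and 53.1% (50.8 to 55.5%) for protein-coding promoters.

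A promoter without a summit in an arm could still be touched by the edge of a peak whose summit lay outside it. Of the promoters with a summit in NanogBiD alone, a NanogWT peak reached into the window at 4 of 339 for BRG1 and 18 of 283 for FLAG. Of those with a summit in NanogWT alone, a NanogBiD peak did so at 18 of 69 for BRG1 and 20 of 121 for FLAG. The smaller class was the more affected. The one-sided summits were low, with a median height of 11 tags for BRG1 and 13 tags for FLAG in NanogBiD alone, against NanogBiD medians of 16 and 18 tags at promoters occupied in both arms.

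**Figure D2:**
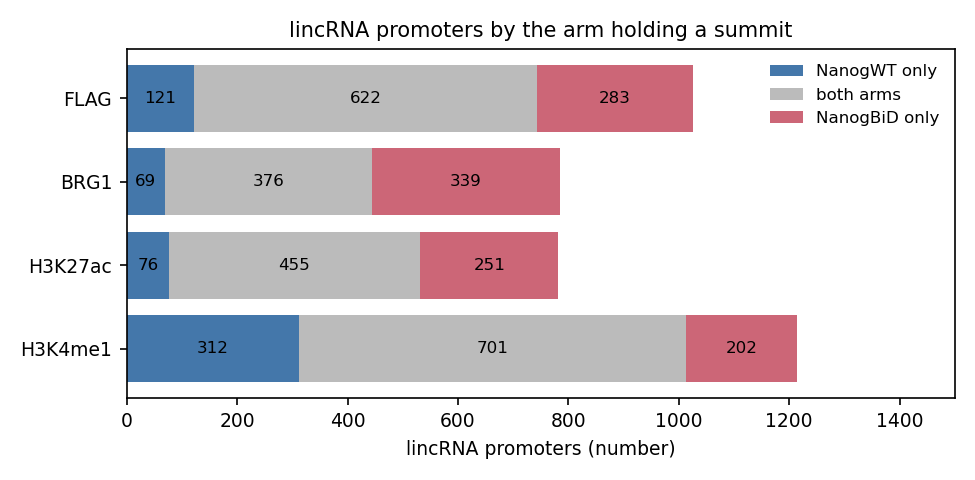
Number of lincRNA promoters (x axis) with a summit in NanogWT only, in both arms or in NanogBiD only, for each target (y axis). BRG1 has 339 promoters in NanogBiD only and 69 in NanogWT only, while H3K4me1 has 202 and 312.

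At promoters with a summit in both arms the heights differed little between libraries. The value compared is the tallest summit of the window, and the tallest summits of the 2 arms lay within 500 bp of each other at 550 of 622 promoters for FLAG, 338 of 376 for BRG1, 403 of 455 for H3K27ac and 596 of 701 for H3K4me1. Heights at the others are those of sites further apart. The median log2 ratio of heights, NanogBiD over NanogWT, was 0.16 for FLAG (622 promoters), 0.15 for BRG1 (376) and 0.10 for H3K27ac (455), and it was -0.21 for H3K4me1 (701). At protein-coding promoters the medians were 0.10, 0.00, 0.08 and -0.11. A FLAG summit at least 2-fold taller in NanogBiD was found at 43 of 622 lincRNA promoters (6.91%, beside 2.47% of all promoters with FLAG in both arms), and one at least 2-fold taller in NanogWT at 8 (1.29%, beside 0.467%). For BRG1 these were 24 of 376 (6.38%, beside 1.2%) and 3 (0.798%, beside 0.419%). The share of BRG1 summits taller in NanogWT rests on 3 promoters, and its interval (0.272 to 2.32%) includes the share over all promoters. The intervals of the other 3 shares lay above theirs. The median FLAG heights at these lincRNA promoters were 16 tags in NanogWT and 18 in NanogBiD, against 18 and 20 at protein-coding ones.

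BRG1 came to lie with FLAG more often in NanogBiD. Of the lincRNA promoters with a FLAG summit, 372 of 743 (50.1%, 46.5 to 53.7%) also held BRG1 in NanogWT, and 649 of 905 (71.7%, 68.7 to 74.6%) did so in NanogBiD. With 20000 peaks per list the shares were 68.6% (62.7 to 73.9%) and 78.7% (73.4 to 83.1%), whose intervals overlap. At protein-coding promoters the shares over whole lists were 90.8% and 91.6%. Of the 339 promoters with BRG1 in NanogBiD alone, 202 had FLAG in both arms. There were 273 promoters with FLAG in both arms and no BRG1 in NanogWT, and 202 of them (74.0%, 68.5 to 78.8%) held BRG1 in NanogBiD. Of the 349 with FLAG in both arms and BRG1 in NanogWT, 24 (6.88%, 4.66 to 10%) had no BRG1 summit in NanogBiD. For protein-coding promoters in the same positions, 401 of 584 (68.7%, 64.8 to 72.3%) and 262 of 9257 (2.83%) did so. The intervals of the share that took up BRG1 overlapped between both kinds of promoter. FLAG in both arms without BRG1 in NanogWT made up 273 of 622 lincRNA promoters and 584 of 9841 protein-coding ones.

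FLAG heights differed between these classes. At the 202 promoters with FLAG in both arms and BRG1 in NanogBiD alone, the median FLAG summit was 13 tags tall in the NanogWT arm and 17 in the other, and the log2 ratio of the heights had a median of 0.26. FLAG was taller in NanogBiD at 136 of them and in NanogWT at 48. At the 325 promoters with both proteins in both arms the medians were 20 and 21 tags and the median log2 ratio was 0.16, with FLAG taller in NanogBiD at 195 and in NanogWT at 118. At the 24 with BRG1 in NanogWT alone the median log2 ratio was -0.24. At the 71 promoters with FLAG in both arms and BRG1 in neither, the medians were 11 and 13 tags and the median log2 ratio was 0.00. The promoters that held BRG1 in NanogBiD alone therefore had weaker NanogWT FLAG summits than the stable ones, and 30 of them accounted for most of the 43 with a 2-fold taller FLAG summit.

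The same classes differed in H3K27ac. At the 202 promoters, 66 held H3K27ac in NanogWT and 131 in NanogBiD, and 69 held it in NanogBiD alone against 4 in NanogWT alone. At the 71 promoters with FLAG in both arms and BRG1 in neither, 17 held H3K27ac in NanogWT and 19 in NanogBiD. Of the promoters without BRG1 in either arm, those with FLAG in NanogBiD alone (156) held H3K27ac at 15 and 35, and those with FLAG in NanogWT alone (87) at 16 and 24. At the 325 stable promoters, the numbers were 284 and 310. H3K4me1 was held by 135 of the 202 promoters in NanogWT and by 127 in NanogBiD. Over all lincRNA promoters H3K27ac was at 10.2% in NanogWT and 13.6% in NanogBiD, and over all annotated promoters at 27.4% and 29.3%. The classes were defined by FLAG and BRG1 summits, and the marks were not counted in the same classes over all annotated promoters. Whether these contrasts are particular to lincRNA promoters is thus not known.

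A group of 97 promoters held both FLAG and BRG1 in NanogBiD and neither in NanogWT, which is 1.87% of lincRNA promoters (1.54 to 2.28%), beside 1.37% of all promoters and 1.19% of protein-coding ones. The opposite group held 14 promoters (0.27%, 0.161 to 0.453%), beside 0.48% of all promoters. No FLAG or BRG1 peak of the other arm reached the window at 91 of the 97 and 10 of the 14. Of the 97, 12 carried H3K27ac in NanogWT and 43 in NanogBiD, and 46 carried H3K4me1 in NanogWT and 61 in NanogBiD. More of these promoters thus carried H3K4me1 than H3K27ac in NanogWT. The same held for all lincRNA promoters (19.5% and 10.2%) and for all annotated promoters (31.8% and 27.4%). In NanogBiD H3K4me1 and H3K27ac were at 17.4% and 13.6% of all lincRNA promoters, and at 30.8% and 29.3% of all annotated ones.

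The 6 strongest of the 97 had all their FLAG and BRG1 values in NanogBiD. A330102I10Rik (chr13:29012399-29016399), whose nearest protein-coding start is that of Sox4 at 60.7 kb, had heights of 24 tags for FLAG, 15 for BRG1 and 16 for H3K27ac in NanogBiD, and no summit of any target in NanogWT. Gm12498 (chr3:108023249-108027249), 7.28 kb from the start of the glutathione transferase gene Gstm1, had summits of all 4 targets in NanogBiD (FLAG 26 tags, BRG1 25, H3K27ac 14, H3K4me1 17) and none in NanogWT. Gm47839 (chr10:124843481-124847481) held FLAG at 34 tags and BRG1 at 16, with neither mark in either arm. Its FLAG and BRG1 summits lay 167 and 174 bp downstream of the start, at the octamer shown above.

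Some of these promoters carried H3K4me1 alone in NanogWT. Gm29502 (chr13:100845433-100849433) had 15 tags of H3K4me1 in NanogWT and 12 in NanogBiD, beside FLAG at 19, BRG1 at 15 and H3K27ac at 11 tags in NanogBiD alone. Gm33979 (chr10:70736844-70740844) had 11 and 16 tags of H3K4me1, with FLAG at 27, BRG1 at 18 and H3K27ac at 9 tags in NanogBiD alone. Gm29561 (chr3:104662139-104666139) held no H3K4me1 summit in either arm, and its FLAG (26 tags) and BRG1 (24 tags) peaked near the edge of the window in NanogBiD, 1954 and 1949 bp from the start. NanogWT peaks of FLAG, H3K27ac and H3K4me1 reached into that window, so its classes are less clear than those of the other 5.

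H3K27ac was also in NanogBiD alone at 34 of the 97 promoters. Beside A330102I10Rik and Gm29561, where the edge of a NanogWT H3K27ac peak reached into the window of the latter, the strongest were 1700011C11Rik and Gm12606. 1700011C11Rik (chr7:71959173-71963173) had 31 tags of FLAG, 21 of BRG1 and 28 of H3K27ac in NanogBiD, with FLAG 125 bp upstream of the start, and only the edge of a NanogWT FLAG peak reached into the window. Gm12606 (chr4:89271403-89275403), 21.2 kb from the start of Cdkn2a, which encodes cell cycle inhibitors that limit reprogramming, had 17, 11 and 13 tags. Both carried 15 tags of H3K4me1 in NanogWT, with 18 and 16 in NanogBiD, and at Gm12606 the summits of that mark lay 1489 and 209 bp upstream of the start in the respective arms.

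The strongest of the 14 promoters in the opposite group was Gm31333 (chr12:29137167-29141167), with 29 tags of FLAG, 22 of BRG1 and 21 of H3K27ac in NanogWT and none in NanogBiD. Its H3K4me1 summit had 30 tags in NanogWT and 17 in NanogBiD. Gm33201 (chr6:99989215-99993215) had 10 tags each of FLAG and BRG1 in NanogWT alone. At Gm49427 and AC124192.1 the NanogWT summits of 38 and 26 tags of FLAG had NanogBiD FLAG and BRG1 peaks reaching into the window, so the absence of a summit there is not the absence of a peak. Over the 14 promoters, H3K27ac was at 7 in NanogWT and 8 in NanogBiD, with 3 in NanogWT alone and 4 in NanogBiD alone.

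For BRG1, the difference between arms at lincRNA promoters lay between those of coding promoters and of other distal sites. Counted as summits rather than promoters, lincRNA windows contained 434 BRG1 summits in NanogWT and 710 in NanogBiD (ratio 1.64, 1.45 to 1.85). The ratio was 1.06 (1.03 to 1.08) for BRG1 summits within 2 kb of protein-coding starts and 2.16 (2.12 to 2.20) for those over 5 kb from coding starts and outside lincRNA windows. The 3 intervals do not overlap. For FLAG the ratio was 1.23 (1.12 to 1.36) in lincRNA windows, 1.04 near coding starts and 1.33 at other distal sites, and for H3K27ac it was 1.31 (1.17 to 1.47), 1.06 and 1.28. H3K4me1 gave 0.884 (0.808 to 0.967), 0.960 and 0.749. For FLAG and H3K27ac the lincRNA interval included the value of other distal sites.

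**Figure D3:**
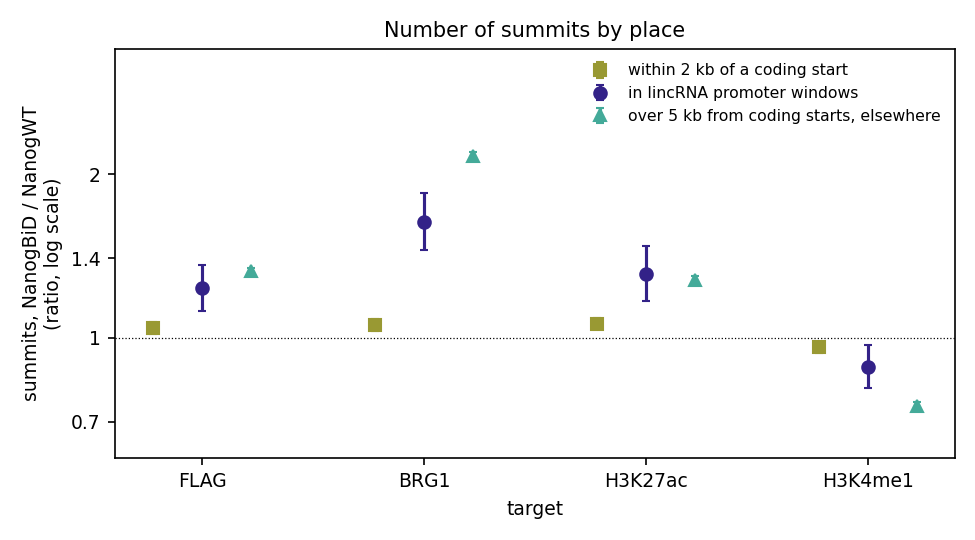
Ratio of the number of summits, NanogBiD over NanogWT (y axis, log scale), for each target (x axis) at 3 kinds of place; bars are 95% intervals for counting error, and the dotted line is equality. BRG1 in lincRNA windows (1.64) lies between the values near coding starts (1.06) and at other distal sites (2.16).

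Within the lincRNA promoters, occupancy was also counted by distance to the nearest protein-coding start. BRG1 was held by 102 and 144 of 834 promoters that were 5 to 20 kb from a protein-coding start, a ratio of 1.41 (1.09 to 1.84). It was held by 228 and 343 of 2028 promoters at 20 to 100 kb, a ratio of 1.50 (1.27 to 1.79), and by 115 and 228 of 2322 promoters over 100 kb away, a ratio of 1.98 (1.58 to 2.50). For FLAG the ratios were 1.38, 1.23 and 1.13. The intervals of all 3 distance classes overlapped for both targets, and no trend was tested. The remotest promoters were the least often occupied, with BRG1 at 4.95% and 9.82% in the 2 arms, against 12.2% and 17.3% for the nearest.

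Summits gathered at the start site. The tallest summit lay within 500 bp of the start at 43.1% of FLAG promoters in NanogWT and 40.4% in NanogBiD, and at 48.5% and 44.8% of BRG1 promoters. H3K27ac was the most concentrated, with 52.0% and 51.3%. An even spread over the window would put 25% there. BRG1 summits in NanogBiD exceeded those in NanogWT both within 500 bp (216 and 320 promoters, ratio 1.48, 1.24 to 1.77) and further out (229 and 395, ratio 1.72, 1.46 to 2.04).

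**Figure D4:**
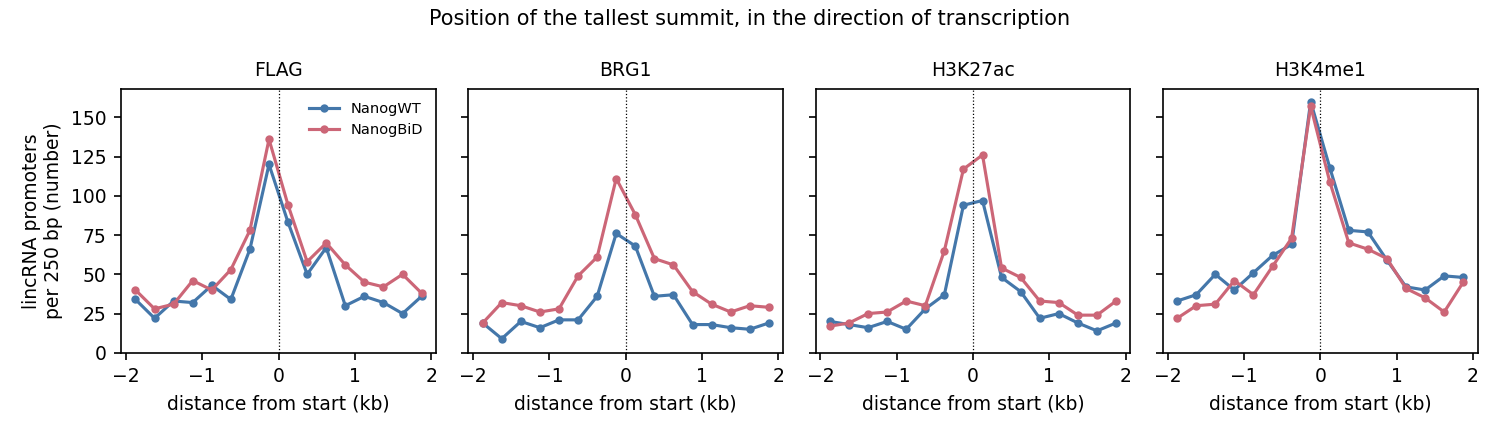
Number of lincRNA promoters per 250 bp bin (y axis) by the distance of the tallest summit from the start, in the direction of transcription (x axis, kb), for each target and arm. All targets peak around the start, and the NanogBiD curve for BRG1 lies at or above the NanogWT curve in every bin.

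Sequence composition differed between the classes. CpG content was measured as the observed over expected ratio of CG dinucleotides in the 250 bp on either side of the start. Its median was 0.207 over all lincRNA promoters, against 0.586 for protein-coding ones. A ratio of at least 0.6, as in CpG islands, was found at 237 of 5184 lincRNA promoters (4.57%) and at 49.0% of protein-coding promoters. Among the 325 promoters with FLAG and BRG1 in both arms it was found at 70 (21.5%, 17.4 to 26.3%), but among the 202 with BRG1 added in NanogBiD at 9 (4.46%, 2.36 to 8.25%) and among the 97 with both added at 6 (6.19%, 2.87 to 12.8%). These shares were near that of all lincRNA promoters, while the median CpG ratios, 0.259 for the 202 and 0.271 for the 97, were above the 0.207 of all and the 0.183 of promoters with no summit. Repeat-masked sequence made up a median of 9.38% of the 325, 10.6% of the 202, 11.4% of the 97 and 19.6% of the promoters with no summit.

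The BRG1 ratio was also computed by CpG content. At the 4947 lincRNA promoters with a ratio under 0.6, BRG1 was at 360 in NanogWT and at 1.72 times as many, 618, in NanogBiD (1.50 to 1.96). At the 237 with a higher ratio the numbers were 85 and 97 (1.14, 0.844 to 1.54). These intervals overlap, and the difference between the ratios was not tested. Protein-coding promoters with a ratio under 0.6 gave 1.12 (1.05 to 1.19), an interval below that of the lincRNA promoters.

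Motif matches at FLAG summits in lincRNA windows were set beside those at FLAG summits elsewhere. A FLAG summit was here called one-sided when no peak of the other arm overlapped its peak. AP-1 letters were within 50 bp of 23 of 305 NanogBiD-only summits in lincRNA windows (7.54%, 5.08 to 11.1%), beside 7.74% of the other NanogBiD-only FLAG summits. They were at 3 of 132 NanogWT-only summits (2.27%, 0.776 to 6.47%), beside 4.32%, and at 57 of 617 shared summits (9.24%, 7.20 to 11.8%), beside 7.62%. In windows 1 kb downstream of the same lincRNA summits the shares were 1.97%, 2.27% and 2.92%. The NanogWT-only summits thus did not exceed that level, and the other 2 classes did.

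The octamer was at 5 of the 305 NanogBiD-only summits (1.64%, 0.702 to 3.78%), beside 2.9% elsewhere, and at 1 of the 132 NanogWT-only summits. SOX letters were at 27 of the 305 (8.85%) and at 27 of the windows 1 kb downstream, beside 10.1% and 6.94% for the other NanogBiD-only summits. TEAD letters were at 26 (8.52%) and RUNX letters at 7 (2.3%) of the 305, beside 6.36% and 3.48% elsewhere. In the windows 1 kb downstream of the 305, TEAD was at 19 (6.23%), RUNX at 6 (1.97%) and the octamer at 2 (0.656%). A match is a run of letters only.

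Of the 238 promoters with a summit in all 8 lists, the 5 with the highest minimum over the 8 lists were 4930580E04Rik, A230028O05Rik, 1700096K18Rik, Gm31812 and Gm34256. At 4930580E04Rik (chr5:23385109-23389109) FLAG had 43 and 47 tags in NanogWT and NanogBiD, BRG1 32 and 37, H3K27ac 35 and 38, and H3K4me1 27 and 28, with the NanogBiD FLAG summit 26 bp upstream of the start. At 1700096K18Rik (chr5:25528013-25532013), whose CpG-rich promoter is printed above, FLAG had 33 and 39 tags, BRG1 33 and 35, H3K27ac 41 and 42, and H3K4me1 25 and 29. The arms differed by few tags at both. Gm34256 (chr16:31591220-31595220) differed more, with BRG1 at 23 tags in NanogWT and 40 in NanogBiD beside FLAG at 54 and 59.

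Where BRG1 reached at least 15 tags in both arms (139 promoters), the largest NanogBiD over NanogWT ratios were at Gm29630 (15 and 38 tags, 2.53-fold), 4930519L02Rik (15 and 35, 2.33-fold) and Gm47070 (15 and 30, 2-fold). At Gm47070 (chr9:120869030-120873030) FLAG went from 11 to 28 tags and an H3K27ac summit of 21 tags was in NanogBiD alone. At 4930519L02Rik (chr3:143015660-143019660) FLAG was 53 and 47 tags, so BRG1 was taller without a taller FLAG summit. The smallest ratios were at AC158605.1 (27 and 17 tags, 0.630), A630001O12Rik (27 and 18, 0.667) and 5430416N02Rik (22 and 15, 0.682). These extremes were chosen for their ratios and are given as a description.

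H3K4me1 alone was the commonest occupied state in NanogWT. It was held by 345 promoters in NanogWT and 202 in NanogBiD (6.66% and 3.9%, beside 6.14% and 4.43% of all annotated promoters), and 91 promoters were in that state in both. Of the 345, 138 held no summit at all in NanogBiD and 22 held all 4 targets. The state with all 4 targets went from 287 to 423 promoters (5.54% and 8.16%, beside 18.7% and 20.2%), and FLAG with BRG1 and neither mark from 11 to 73 (0.212% and 1.41%, beside 0.289% and 1.05%). FLAG with H3K4me1 alone went from 150 to 62 promoters (2.89% and 1.2%, beside 1.49% and 0.74%). All 4 of these states moved the same way over all promoters. Of the 150 promoters with FLAG and H3K4me1 alone in NanogWT, 38 held all 4 targets in NanogBiD. The tallest H3K4me1 summits that stood alone in NanogWT and had no counterpart in NanogBiD were at Gm13056 (23 tags), 4933407E24Rik (22 tags) and Gm38910 (21 tags), and the first 2 of these held H3K27ac in NanogBiD alone, at 12 and 16 tags. At 4933407E24Rik NanogWT peaks of FLAG, BRG1 and H3K27ac already reached into the window.

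Well-known lincRNAs were read by group, in groups of 5 to 22 promoters. Some genes count in several groups, namely Pvt1 as a broadly expressed and a growth arrest transcript, and H19, Meg3 and Mirg as mesenchymal and imprinted ones. The counts stand beside the shares over all lincRNA promoters, in NanogWT and NanogBiD. These were 14.3% and 17.5% for FLAG, 8.58% and 13.8% for BRG1, 10.2% and 13.6% for H3K27ac, and 19.5% and 17.4% for H3K4me1. Of 22 promoters of pluripotency-associated transcripts that met the rule, 16 held no summit in any list, beside 3679 of all 5184 lincRNA promoters (71.0%). FLAG was at 3 in NanogWT and 5 in NanogBiD, and BRG1 at 1 and 3. Platr11 (chr9:118404099-118408099) held FLAG at 18 tags and BRG1 at 9 tags in NanogBiD, 244 and 224 bp upstream of its start, and nothing in NanogWT. Rmst (chr10:92163170-92167170), which binds SOX2 in neural cells, held FLAG at 18 and 24 tags, and BRG1 at 14 and H3K4me1 at 13 tags in NanogBiD alone. Its FLAG summits were different sites, 1904 bp upstream of the start in NanogWT and 1798 bp downstream in NanogBiD, near the BRG1 summit at 1867 bp. Lncenc1 (chr13:97432970-97436970) held FLAG at 11 and 17 tags, H3K27ac at 19 and 15, and BRG1 at 11 and H3K4me1 at 15 tags in NanogBiD alone. Platr29 went the other way, with FLAG at 19 and 13 tags and BRG1 at 15 tags in NanogWT alone, and Platr22 held FLAG at 9 tags in NanogBiD alone.

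Broadly expressed transcripts were occupied in near-equal numbers in both arms. Of 8 such promoters FLAG was at 6 in NanogWT and 5 in NanogBiD, and BRG1 at 5 in both. Malat1 (chr19:5800672-5804672), a nuclear speckle RNA, held FLAG at 18 and 29 tags, BRG1 at 27 and 29 and H3K4me1 at 24 and 17, with no H3K27ac summit. Snhg6, a host of small nucleolar RNAs, held FLAG at 22 and 21 tags and BRG1 at 12 and 17. Pvt1, which neighbours Myc, held FLAG at 18 and 17 and BRG1 at 14 and 15, and Epb41l4aos FLAG at 15 and 22 and BRG1 at 15 in both. The BRG1 summits at Pvt1 lay apart, 79 bp upstream of the start in NanogWT and 1088 bp downstream in NanogBiD. Neat1, the scaffold of paraspeckles, was the exception, with FLAG at 26 tags in NanogWT and no FLAG peak in its window in NanogBiD.

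Of 5 promoters of growth arrest and stress transcripts, FLAG was at 3 and BRG1 and H3K27ac at 4 in each arm, and H3K4me1 at 4 in NanogWT and 3 in NanogBiD. Lockd, downstream of Cdkn1b, held FLAG at 32 and 28 tags and BRG1 at 29 in both arms. Lncpint, a transcript induced by p53, held FLAG at 15 and 18 and BRG1 at 14 and 21 tags. Trp53cor1, the p53 target beside Cdkn1a also known as lincRNA-p21, held no FLAG summit, with BRG1 at 16 and 18 and H3K27ac at 29 and 34 tags, and H3K4me1 at 19 tags in NanogWT alone. NanogBiD peaks of FLAG and H3K4me1 reached into its window.

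Of 11 mesenchymal and developmental transcripts, FLAG was at 1 promoter in NanogWT and 2 in NanogBiD, and BRG1 at 3 in both. H3K4me1 was at 5 of the 11 in NanogWT and 2 in NanogBiD, and 3 of the 5 held it in NanogWT alone, a class that holds 6.02% of lincRNA promoters and 4.93% of all promoters. Carmn, which hosts microRNAs of smooth muscle, held FLAG at 19 and 21, BRG1 at 23 and 20 and H3K27ac at 44 and 35 tags. Its neighbour Bvht, a transcript of cardiac commitment, held FLAG at 23 tags in NanogBiD alone, BRG1 at 12 and 21 and H3K27ac at 18 and 34. The BRG1 summits at Bvht were different sites, 1260 bp upstream of the start in NanogWT and 1035 bp downstream in NanogBiD. Mir17hg, the host of a microRNA cluster that favours proliferation, held BRG1 at 14 tags in both arms. H19 and Hotair held no summit in any list. Of 6 imprinted and X-linked transcripts, FLAG was at 3 in both arms, all of them genes of the X-inactivation centre. Ftx held FLAG at 27 and 18 and BRG1 at 13 and 19 tags, Jpx FLAG at 11 and 8 and BRG1 at 7 tags in NanogWT alone, and Xist FLAG at 10 and 9 and BRG1 at 8 tags in NanogBiD alone. The FLAG summits at Xist lay 1345 bp downstream of the start in NanogWT and 624 bp upstream in NanogBiD.

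**Figure D5:**
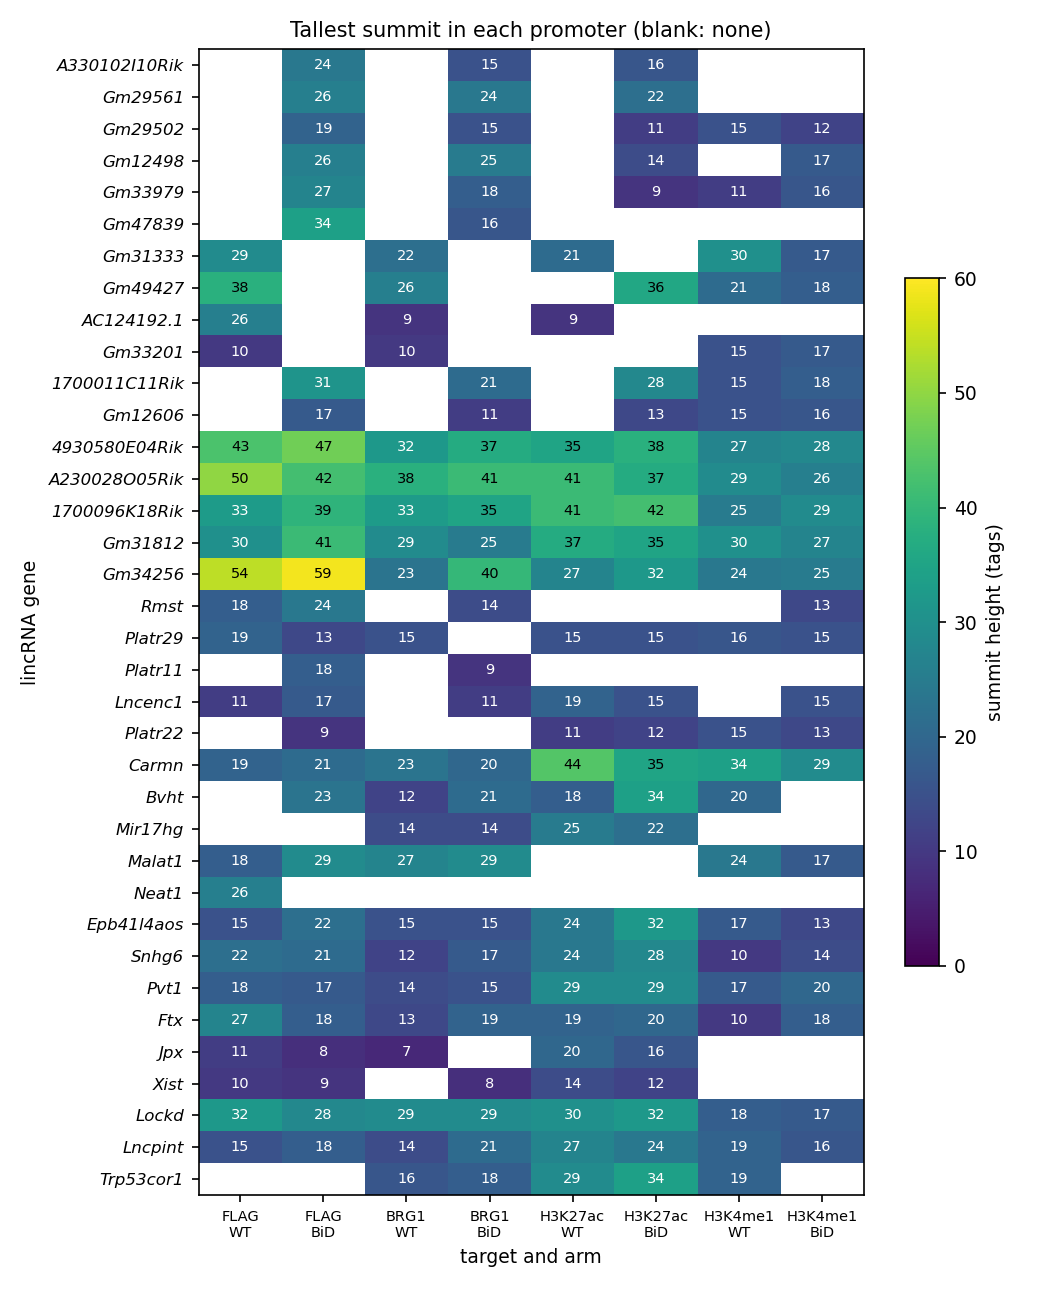
Height of the tallest summit (colour scale and number, tags) at the promoters of 36 named lincRNA genes (y axis) for each target in NanogWT (WT) and NanogBiD (BiD) (x axis); values of the 2 arms may be of different sites in the window, and blank cells hold no summit, though the edge of a peak may reach into some. The first 6 genes are blank for FLAG and BRG1 in NanogWT, and the promoters from 4930580E04Rik to Gm34256 are filled in all 8 lists.

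The tallest summits of 6 of the 8 lists stood at a place, chosen for mention after its values were seen, that the annotation counts as lincRNA but that RefSeq relates to ribosomal RNA. Gm26917 (start at 39843013 on chromosome 17) held BRG1 at 129 tags in NanogWT and 163 in NanogBiD, FLAG at 74 and 91, and H3K27ac at 103 in both. The neighbouring Gm42418 held H3K4me1 at 77 and 65 tags. RefSeq places Rn18s-rs5, a sequence related to 18S RNA, at chr17:39846354-39848202, and lists Gm42418 among its synonyms. Leaving out these 2 genes left the 4 ratios of promoter numbers over all lincRNA promoters unchanged to 3 digits.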

How the data were processed

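CUT&Tag lists of 8 libraries were used, 1 for each of 4 targets in each of 2 arms. Per the methods and the submitters' processing notes, the authors trimmed reads with Trim Galore 0.6.4, aligned them to mm10 with Bowtie2 2.4.5, removed repetitive, mitochondrial and poorly mapped reads with SAMtools 1.16.1, merged replicates and called peaks with MACS 1.4.2, keeping 1 tag per position. No control library is named, and the number of replicates merged is not given for these libraries beyond a general statement in the study that experiments were replicated. The deposited peak lists hold the peak caller's score. The deposited summit lists hold the signal, the tag pileup at each summit as a whole number, not scaled to depth. Depth is not given in the sources used here.

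Peaks and summits were joined by name, and a promoter was counted as occupied when a summit lay within 2 kb of the GENCODE M21 gene start. The tallest summit in a window gave its height. Chromosome lengths of the lists fitted the mm10 sequence used for motifs and CpG content. Shares carry Wilson intervals, shares of promoters with a summit in 1 arm exact binomial intervals, and ratios exact conditional binomial intervals, all at 95%. Occupancy calls were tested on 4000 simulated windows, with 0 wrong. Named genes were the strongest by score or height in classes defined by which lists held a summit (6 and 4 for FLAG with BRG1 in 1 arm, 4 with H3K27ac added, 5 in all lists, 3 at each end of the BRG1 height ratios, 3 with lost H3K4me1), and up to 5 members of each gene list. The members, the lists and the rules were chosen with earlier results of these data known. Analyses used Python 3.11.15, pandas 2.3.3, NumPy 2.4.6, SciPy 1.17.1 and pysam 0.24.0.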

Additional observations from a re-analysis of the deposited data

Results flagged for a closer look

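H3K4me1 summits at lincRNA promoters were fewer in NanogBiD (ratio 0.891), while the 3 other targets each had more, with FLAG at 1.22, BRG1 at 1.61 and H3K27ac at 1.33. The difference between targets was drawn from the opposite directions of single libraries and was not tested.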

How the results depend on the processing

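The 4 ratios and the 2 shares of FLAG promoters that also held BRG1 were recomputed under 11 other settings, 2 of them added after the data were seen, and 53 of the 66 values lay within the 95% interval of the value reported. All values under narrower windows, every transcript start, 10 kb from coding starts, no overlap with coding genes, peaks in place of summits and joined windows did so. Those without chromosome Y and those without Gm26917 and Gm42418 did so too, but these settings could hardly move them. No chromosome Y promoter held a summit, and without the 2 genes the BRG1 counts were 444 and 714. When lists were limited to 20000 peaks each, the BRG1 ratio was 0.89 (0.756 to 1.05) and the H3K4me1 ratio 1.01, on the other side of equality with intervals that include it, FLAG fell to 1.03 and H3K27ac to 1.10, and the shares of FLAG promoters with BRG1 were 68.6% in NanogWT and 78.7% in NanogBiD. With summits of at least 15 tags FLAG was 1.37, H3K4me1 0.66 and the shares 39.2% and 52.1%. With a score of at least 100 H3K4me1 was 0.767 and the shares 44.4% and 61.4%. The share with BRG1 was higher in NanogBiD under each of these alternatives, but with 20000 peaks per list the intervals of the arms overlapped. Equal list sizes keep a smaller share of the larger list by construction, and the causes of these shifts were not tested. No paired analysis was possible because there is only a single merged library in every group. Unknown depth limits every comparison of list sizes and heights, and low summits near the calling threshold are the least certain.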
